A study of Mus musculus with 52 samples.

Results

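Genes of the claudin family, of the tight junction and of the desmosome were followed in bulk RNA-seq of 32 individual mouse tumors. The members were the protein-coding genes whose symbols name a numbered claudin, a ZO protein, Pkp1 to Pkp4, a numbered desmoglein or desmocollin 1 to 3, together with Ocln, Marveld2, Marveld3, F11r, Cgn, Jup, Dsp, Ppl and Evpl. There were 44 such genes of 27525 in the deposited table, namely 19 claudins, 4 other tight junction membrane proteins, 4 tight junction plaque proteins, 9 desmosomal cadherins and 8 desmosomal plaque proteins. Cldn20 was left out because the table lists it as a processed pseudogene.

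The tumors grew under the skin of syngeneic C57BL/6NHsd male mice aged 8 to 10 weeks from a single line of KPC cells. These pancreatic adenocarcinoma cells came from mice with engineered alleles, among them a Trp53 allele carrying R172H, switched on by a Pdx1-Cre transgene, so every group shared these alleles. Of 4 groups with 8 tumors each, the first was untreated, the second had a single injection of 2 µg of the STING agonist ADU-S100 into the tumor, the third had 4 intraperitoneal doses of the agonistic anti-LTβR antibody 4H8, and the fourth had both agents. All tumors were removed on day 14 and sequenced whole, so the RNA of tumor cells, vessels, leukocytes and any attached skin or muscle was measured together.

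Tight junctions close the gap between neighboring epithelial or endothelial cells. Claudins form their strands, occludin and the Marveld proteins sit beside them, and ZO proteins and cingulin (Cgn) tie the strands to actin. Desmosomes are spot welds whose cadherins (desmogleins and desmocollins) are tied by plakoglobin (Jup), plakophilins and desmoplakin (Dsp) to keratin filaments, and they are most abundant in stratified epithelia such as the epidermis.

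Of the members tested, 3 passed an adjusted p of 0.05 and changed by at least 2-fold in tumors given both agents against untreated tumors. Members below a filter on low values were not counted. The 3 were claudins on different chromosomes, and the bases before their transcription starts are shown to compare them. Sequences are from RefSeq, build GRCm38.p6, plus strand, 5′ to 3′, up to 250 bases before the RefSeq start and shortened where the GENCODE annotation of the same build begins an exon of the gene. RefSeq promoters were at hand for 24 of the 44 members. Cldn10 has 2 RefSeq starts, and only the upstream one is shown because GENCODE exons cover most of the window before the other. Cldn5 lies at chr16:18776597-18776846, Cldn6 at chr17:23679115-23679248 and Cldn10 at chr14:118787621-118787870.
Cldn5: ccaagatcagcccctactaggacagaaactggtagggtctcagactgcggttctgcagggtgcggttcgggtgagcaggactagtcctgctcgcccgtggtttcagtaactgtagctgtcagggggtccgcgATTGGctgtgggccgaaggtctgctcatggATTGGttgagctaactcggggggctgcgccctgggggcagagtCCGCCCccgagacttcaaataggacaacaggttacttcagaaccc
Cldn6: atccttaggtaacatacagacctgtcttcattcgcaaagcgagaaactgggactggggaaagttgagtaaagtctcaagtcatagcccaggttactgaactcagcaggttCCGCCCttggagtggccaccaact
Cldn10: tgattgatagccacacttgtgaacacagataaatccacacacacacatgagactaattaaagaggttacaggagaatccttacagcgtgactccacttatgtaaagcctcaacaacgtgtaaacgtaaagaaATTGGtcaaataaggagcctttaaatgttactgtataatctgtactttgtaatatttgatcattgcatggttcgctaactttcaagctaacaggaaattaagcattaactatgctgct
Capitals mark matches, on either strand, to any of 10 motifs that were searched. These were the GC box GGGCGG, the CCAAT box, the TATA box TATAAA, the E-box CAGGTG, the AP-1 motif TGANTCA, the NF-κB motif, the interferon response element, the ETS motif CCGGAA, the FOX motif GTAAACA and the SOX motif AACAAT. The Cldn5 window held 1 GC box and 2 CCAAT boxes, the Cldn10 window 1 CCAAT box and the shorter Cldn6 window 1 GC box, and no matches overlapped. Over the same stretch of all 32851 RefSeq promoters, 32.7% held a GC box and 33.8% a CCAAT box, and over the Cldn6 stretch 14.5% held a GC box. None of the 10 motifs was shared by all 3 windows.

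Reads recovered per library ran from 12762453 to 15591986, and values are normalized counts, scaled by a size factor for each library. Summed markers of other cell types differed between groups and between tumors. The sum of 12 epithelial tumor markers (Krt8, Krt18, Krt19 and others) ran from 19046 to 34551 in untreated and from 7752 to 17215 in combination tumors, and that of 11 blood endothelial markers from 1781 to 2623 and from 3486 to 4783. Neither pair of ranges overlapped, and no marker of either list was at 0 throughout a group. The sum of 13 skin keratinocyte markers ran from 1479 to 69633 over the 32 tumors and was 20000 or more in 4 untreated, 1 ADU-S100, 1 anti-LTβR and 4 combination tumors. In bulk tumors, fewer cells of a type and less RNA per cell cannot be told apart.

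Per kilobase of exon, the members differed by more than 3 orders of magnitude in level. The highest means over the 32 tumors were those of Pkp1, a plakophilin of the desmosomal plaque (932 normalized counts per kb), F11r, the junctional adhesion molecule JAM-A (657 per kb), and Jup, plakoglobin (592 per kb). The ZO-1 gene Tjp1 followed with 261 per kb and Pkp4 with 158 per kb. Cldn12, with 136 per kb, was the claudin with the highest mean, ahead of Cldn6 (83.1 per kb), Cldn5 (78.8 per kb) and Cldn4 (49.3 per kb). Occludin (Ocln), at 2.17 per kb, was near the lower end, and Cldn3, Cldn8, Cldn9, Cldn14, Cldn18, Dsg1b, Dsg1c and Dsg4 had at least 1 tumor at 0. Reads of Dsp, Pkp1, Tjp1 and Tjp3 could in part belong to genes that overlap them (Gm10129, Gm36938, Gm44792 and Apba3), since whether the counting used strand is not given in the sources used here.

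**Figure D1:**
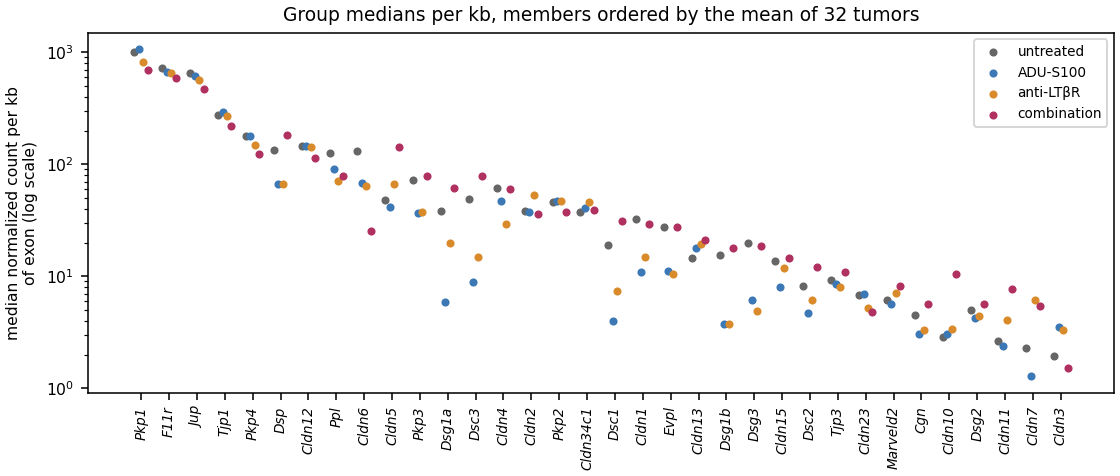
Median normalized count per kilobase of exon in each group of 8 tumors (points, log axis) for 34 of the 35 members with the highest mean over 32 tumors, ordered by that mean. Pkp1, F11r and Jup stand highest in all 4 groups, while Cldn6, Cldn5 and Cldn10 show the combination median apart from the other medians.

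The first question was how the junction genes differed between combination and untreated tumors. Of the 44 members, 32 passed the filter on low values and were tested, and 12 of them passed an adjusted p of 0.05 (limma, Benjamini-Hochberg over all genes), beside 43.2% of all 16909 genes tested. Cldn5, Cldn10 and Marveld2 were higher, beside 19.6% of all genes, and 9 members were lower, among them Cldn6, Cldn12, F11r, Tjp1, Jup, Pkp1, Pkp2 and Pkp4, beside 23.6% of all genes. The members thus passed at 37.5%, near the background, and their median log2 fold change was 0.08 over the 32 tested, against -0.02 over all genes tested. Over all 44 members without the filter the median was -0.05, against 0.03 over all genes. Cldn5, Cldn6 and Cldn10 also changed by at least 2-fold, as did 6.12% of all genes, and the groups did not overlap for Cldn5, Cldn6 and Pkp4, as for 10.7% of all genes. In the tumors with under 20000 summed keratinocyte markers (4 untreated and 4 combination), 11 members passed, 3 higher (Cldn5, Cldn7 and Cldn10) and 8 lower, beside 25.5% of all genes tested there. In the libraries above 14000000 reads (7 untreated and 6 combination), 8 members passed, 3 higher and 5 lower, beside 34.3% of all genes tested there, and Jup, Pkp1 and Tjp1 no longer passed at -0.24, -0.38 and -0.20 on the log2 scale.

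**Figure D2:**
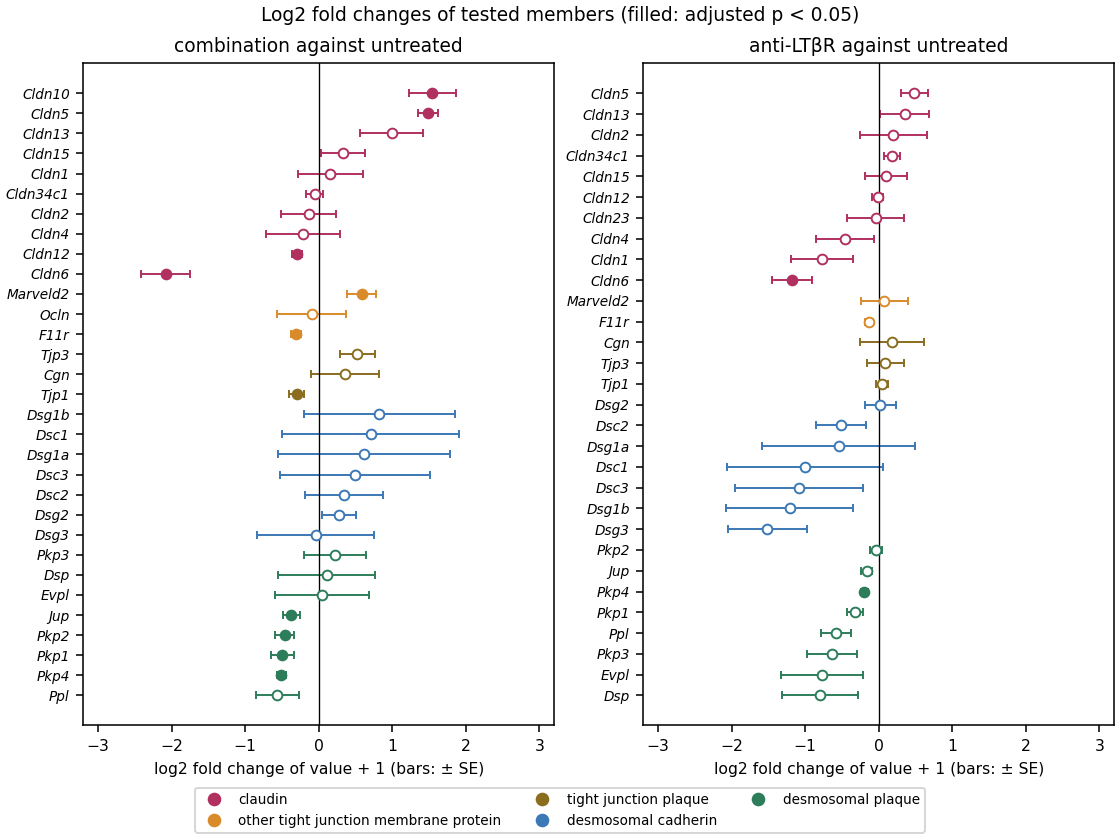
Log2 fold changes on the log2(value + 1) scale with standard errors for the members described here and tested in combination (left) and anti-LTβR tumors (right) against untreated tumors, 8 against 8, colored by role, with filled points for an adjusted p under 0.05. Cldn6 stands lowest on the left at -2.08, and on the right it is filled at -1.18 while Dsg3 and Dsg1b stand lower with open points. The desmosomal cadherins carry the widest error bars.

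Cldn6, a claudin of embryonic epithelia that some carcinomas express, fell the most. In untreated tumors its lowest, median and highest normalized counts were 129, 225 and 538. They were 88.0, 117 and 226 in ADU-S100 tumors and 64.6, 110 and 144 in anti-LTβR tumors. In combination tumors they were 30.0, 43.8 and 103. Every combination tumor thus lay below every untreated tumor, and the medians of the single-agent groups lay between, with ranges that overlapped both. Cldn6 averaged 262 ± 146 (SD, n = 8) in untreated and 60.2 ± 30.1 (SD, n = 8) in combination tumors. The log2 fold change was -2.08 ± 0.33 (SE), 4.23-fold lower, with an adjusted p of 0.000152 in limma's test. Of the 12 epithelial tumor markers, 5 were also lower in combination tumors, among them the keratins Krt18 at -1.46 and Krt8 at -0.92 on the log2 scale, while Cdh1 (-0.27) and Epcam (0.56) did not pass. The part of the epithelial markers in the Cldn6 result was not tested.

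Cldn5, the main claudin of blood vessel endothelium, rose in every combination tumor above every untreated one. Its lowest, median and highest values were 60.6, 68.5 and 100.6 in untreated tumors and 34.4, 58.3 and 102 in ADU-S100 tumors. Anti-LTβR tumors gave 62.4, 95.1 and 166, and combination tumors 145, 203 and 262. The combination group overlapped neither the untreated nor the ADU-S100 group, and 7 of its 8 tumors lay above every anti-LTβR tumor. The log2 fold change against untreated tumors was 1.48 ± 0.14 (SE), 2.79-fold, with an adjusted p of 4.77e-06 in limma's test. All 11 blood endothelial markers were higher in the same comparison, with a median log2 fold change of 0.92 for the list, 0.90 for VE-cadherin (Cdh5) and 0.71 for Pecam1. The part of the endothelial markers in the Cldn5 result was not tested.

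Cldn10, a claudin that forms ion channels in kidney and gland epithelia, was low outside the combination group. Its lowest, median and highest values were 4.01, 7.46 and 17.2 in untreated, 2.96, 7.85 and 13.9 in ADU-S100 and 3.82, 8.72 and 17.8 in anti-LTβR tumors. They were 11.7, 27.1 and 56.5 in combination tumors, of which 6 of 8 lay above every untreated tumor. The log2 fold change against untreated tumors was 1.55 ± 0.32 (SE), 2.92-fold, with an adjusted p of 0.00121 in limma's test. Cldn10 passed the filter on low values only in comparisons that include the combination group, where it is high. A low gene that enters a test in this way had to differ, so its entry is no added support.

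Cldn12, a widely expressed claudin, was lower by a small margin. Untreated tumors ranged from 493 to 690 with a median of 613, and combination tumors from 450 to 560 with a median of 478. The log2 fold change was -0.29 ± 0.07 (SE) with an adjusted p of 0.00241 in limma's test, and 5 of 8 combination tumors lay below every untreated one. In the tumors with under 20000 summed keratinocyte markers the change was -0.26 and no longer passed (adjusted p = 0.0962, limma).

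**Figure D3:**
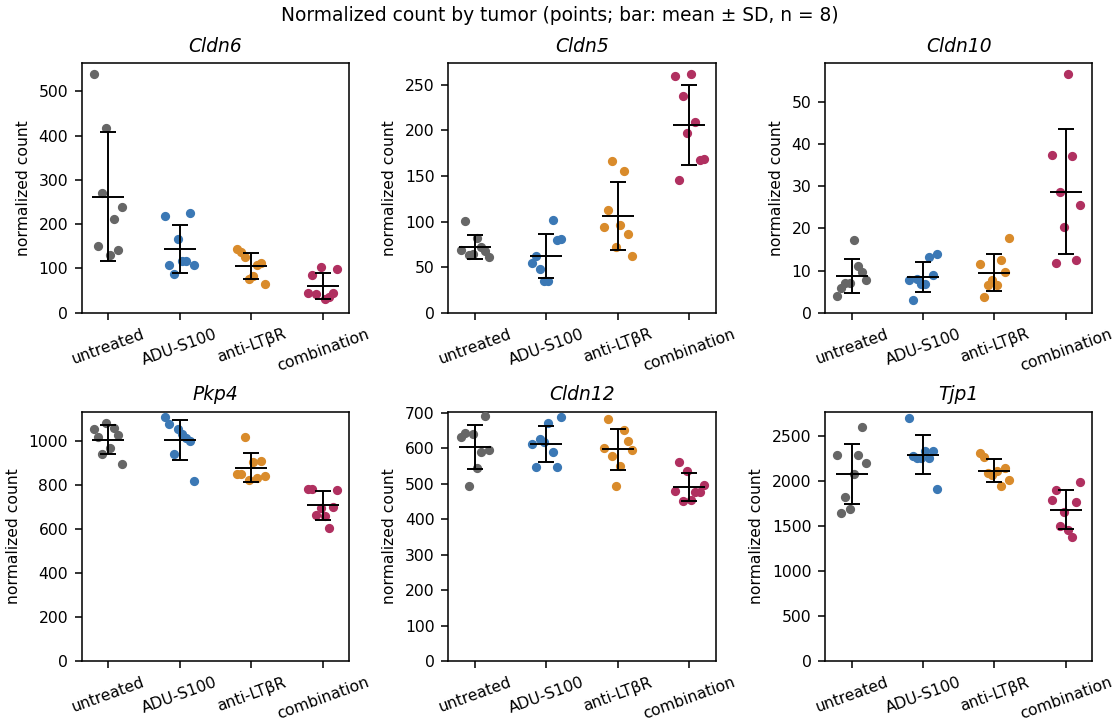
Normalized counts of Cldn6, Cldn5, Cldn10, Pkp4, Cldn12 and Tjp1 in each tumor (points, in order of tumor number) with the mean and SD of each group of 8 (bars). For Cldn6, Cldn5 and Pkp4 the combination points share no value range with the untreated points.

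The other 6 claudins tested against untreated tumors did not pass. Cldn13 had values of 103 and 81.6 in combination tumors 7 and 8 against 5.01 to 21.1 in untreated tumors, and its log2 fold change was 0.99 ± 0.43 (SE) with an adjusted p of 0.0703 in limma's test. It passed in edgeR and DESeq2 on recovered reads (1.37 to 1.38) and with all 4 groups in a joint limma fit (0.99, adjusted p = 0.0283). Cldn2, a claudin of leaky epithelia, ranged from 61.6 to 260 in combination and from 62.3 to 506 in untreated tumors. Cldn4, common in glandular epithelia and carcinomas, ranged from 15.0 to 152 and from 24.4 to 158. Cldn15 changed by 0.33 ± 0.30, Cldn1 by 0.16 ± 0.44 and Cldn34c1 by -0.06 ± 0.11 (log2, SE). Within 2 SE the change reached from -0.73 to 1.04 for Cldn1, from -0.89 to 0.61 for Cldn2 and from -1.21 to 0.78 for Cldn4.

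Of the 19 claudins, 9 were below the filter in this comparison, with means over the 32 tumors from 0.409 (Cldn14) to 13.6 (Cldn23). When the filter was dropped, 3 of them passed, beside 27% of all genes in that fit. Cldn11, a claudin of myelin and testis, had medians of 4.90 in untreated and 14.4 in combination tumors. Cldn19 had medians of 3.04 and 10.3, and Cldn7 of 4.47 and 10.7. At these levels a tumor contributed only a few reads. Cldn7 was at a median of 11.8 in anti-LTβR tumors too, where 6 of 8 lay above every untreated tumor. Cldn18, a gastric and lung claudin, had its highest group median in ADU-S100 tumors (22.3) and its lowest in combination tumors (0.488), with a single untreated tumor at 62.3.

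Among the other membrane proteins of the tight junction, F11r (JAM-A) was lower and Marveld2 (tricellulin, which seals the corners where 3 cells meet) was higher. F11r ranged from 1652 to 2184 in untreated tumors with a median of 1917 and from 1288 to 1779 in combination tumors with a median of 1559. Its log2 fold change was -0.31 ± 0.07 (SE) with an adjusted p of 0.00166 in limma's test, and 7 of 8 combination tumors lay below every untreated one. Marveld2 ranged from 11 to 27.8 and from 18.4 to 41.6, with medians of 20.6 and 27.4. The change of 0.58 ± 0.20 (SE) had an adjusted p of 0.024 in limma's test. This call was lost with all 4 groups in a joint fit, with a term for the replicate number, and in the tumors with under 20000 summed keratinocyte markers (0.39, adjusted p = 0.276, limma). Ocln did not pass (-0.10 ± 0.47, SE), and Marveld3 was below the filter with a mean of 5.60 over the 32 tumors.

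In the tight junction plaque, the ZO-1 gene Tjp1 was lower and Tjp3 and Cgn did not pass. Tjp1 ranged from 1643 to 2596 in untreated tumors with a median of 2134 and from 1378 to 1985 in combination tumors with a median of 1713. The groups overlapped, with 3 of 8 combination tumors below every untreated one, and the log2 fold change was -0.30 ± 0.10 (SE) with an adjusted p of 0.0236 in limma's test. Without the keratinocyte-rich tumors the change was -0.28 with an adjusted p of 0.157 (limma). Tjp3 changed by 0.52 ± 0.24 and Cgn by 0.36 ± 0.47 (log2, SE), and both varied with the keratinocyte markers described below.

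In the desmosomal plaque, 4 of 8 members passed (50%), all of them lower, beside 43.2% of all genes passing and 23.6% lower. Pkp4, a plakophilin found at desmosomes and adherens junctions, ranged from 897 to 1084 in untreated tumors (median 1027), from 822 to 1110 in ADU-S100 tumors (median 1024) and from 825 to 1022 in anti-LTβR tumors (median 853). In combination tumors it ranged from 605 to 783 with a median of 700, and all 8 lay below every tumor of the other groups. The log2 fold change against untreated tumors was -0.51 ± 0.06 (SE) with an adjusted p of 1.85e-05 in limma's test. Pkp1 had medians of 5069 in untreated and 3509 in combination tumors and changed by -0.50 ± 0.16 (SE), and Jup had medians of 4227 and 3052 and changed by -0.37 ± 0.12 (SE). Pkp2, the plakophilin of simple epithelia and heart, had medians of 245 and 202 and changed by -0.46 ± 0.13 (SE). The adjusted p values from limma were 0.0194 for Pkp1, 0.0198 for Jup and 0.00964 for Pkp2. Within the combination group the lowest Pkp1 and Jup values were in tumor 6, which had the smallest keratinocyte sum of that group, and the highest in tumor 4, which had the largest. In the tumors under 20000 the changes were larger, -0.70 for Pkp1, -0.51 for Jup and -0.70 for Pkp2. Periplakin (Ppl) did not pass over all tumors (-0.56 ± 0.29, SE) and passed in those under 20000 (-0.96, adjusted p = 0.00814, limma). Envoplakin (Evpl), Dsp and Pkp3 had log2 fold changes of 0.05, 0.11 and 0.22 and did not pass.

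With all libraries, each comparison fitted on its own groups in limma and no term for the replicate number, none of the 7 desmosomal cadherins tested passed. Their values differed far more between tumors of a group than between groups. Dsc3, a desmocollin of the basal epidermis, had its lowest, median and highest values at 21.4, 263 and 828 in untreated tumors. They were 11, 47.6 and 888 in ADU-S100 tumors, 12.4, 80.2 and 740 in anti-LTβR tumors and 19.6, 421 and 1224 in combination tumors. Within a group the highest tumor was thus from 38.7 to 80.8 times the lowest. Dsg1a, a desmoglein of the upper epidermis, ranged from 10.2 to 985 in untreated, from 5.99 to 980 in ADU-S100, from 19.2 to 1089 in anti-LTβR and from 7.79 to 1176 in combination tumors. The standard errors of their changes in combination against untreated tumors were 1.02 for Dsc3 and 1.17 for Dsg1a, so that the change of Dsc3 within 2 SE reached from -1.55 to 2.54. On recovered reads, edgeR (TMM) and DESeq2 did call some of them. Dsg3 passed in anti-LTβR against untreated tumors (-1.86 in both), in combination against anti-LTβR tumors (2.25 in both) and in the interaction (3.39 in both). Dsc2, a desmocollin found in many epithelia, passed in combination against anti-LTβR tumors (1.35 and 1.34), against ADU-S100 tumors (1.43 and 1.42) and in the interaction (2.13 in both), and Dsg1b in combination against anti-LTβR tumors (2.46 in both). Dsg1b also passed in the interaction in DESeq2. In limma with all 4 groups in a joint fit, Dsc2 passed against ADU-S100 tumors as well (1.07, adjusted p = 0.0494). It also passed there in limma with a term for the replicate number (1.07, adjusted p = 0.0481). In limma with only the libraries above 14000000 reads, Dsc1 (3.397, adjusted p = 0.0376), Dsc3 (2.99, adjusted p = 0.0256) and Dsg1b (3.39, adjusted p = 0.0218) passed in combination against ADU-S100 tumors, and Dsg3 in the interaction (3.23, adjusted p = 0.0491). Dsg2, the desmoglein of simple epithelia, was steadier, ranging from 22.4 to 94.8 over the 32 tumors. Dsg1c and Dsg4 were below the filter, with means of 1.10 and 4.25 over the 32 tumors.

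The same tumors held the high values of these genes and of the skin keratinocyte markers (Krt5, Krt14, Lor and others). In each group, the tumor with the largest keratinocyte sum had the highest value of Dsc1, Dsc3, Dsp, Evpl and Pkp3 among its 8 tumors, or of 16 to 25 of the 44 members in all. Over the 32 tumors, 10 members (Cldn1, Dsc1, Dsc3, Dsg1a, Dsg1b, Dsg3, Dsp, Evpl, Pkp3 and Cgn) had a Pearson's r above 0.9 with the keratinocyte sum on the log2 scale. For Dsc3, r was 0.98 and Spearman's rho 0.96, each with a permutation p of 1e-05, the smallest that 100000 permutations can give, and adjusted p values of 2.93e-05 and 3.14e-05 over the 44 members. Without the 2 tumors farthest from the median sum, r was 0.978, and within the groups it ran from 0.967 to 0.988. Cldn6 showed an r of 0.02 (permutation p = 0.901) and a rho of 0.01 (permutation p = 0.946), and Pkp1 an r of 0.43 (permutation p = 0.0144, adjusted p = 0.0276). Within the groups, whose Pkp1 levels differ, r for Pkp1 was 0.909 in untreated and 0.937 in combination tumors, 0.678 with anti-LTβR alone and 0.106 with ADU-S100 alone. The groups differ in Cldn6 too, and its r was -0.26 in untreated and 0.35 in combination tumors, 0.08 with anti-LTβR alone and 0.67 with ADU-S100 alone. Both measures come from the same libraries, and the share of skin in a tumor was not measured apart from them.

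**Figure D4:**
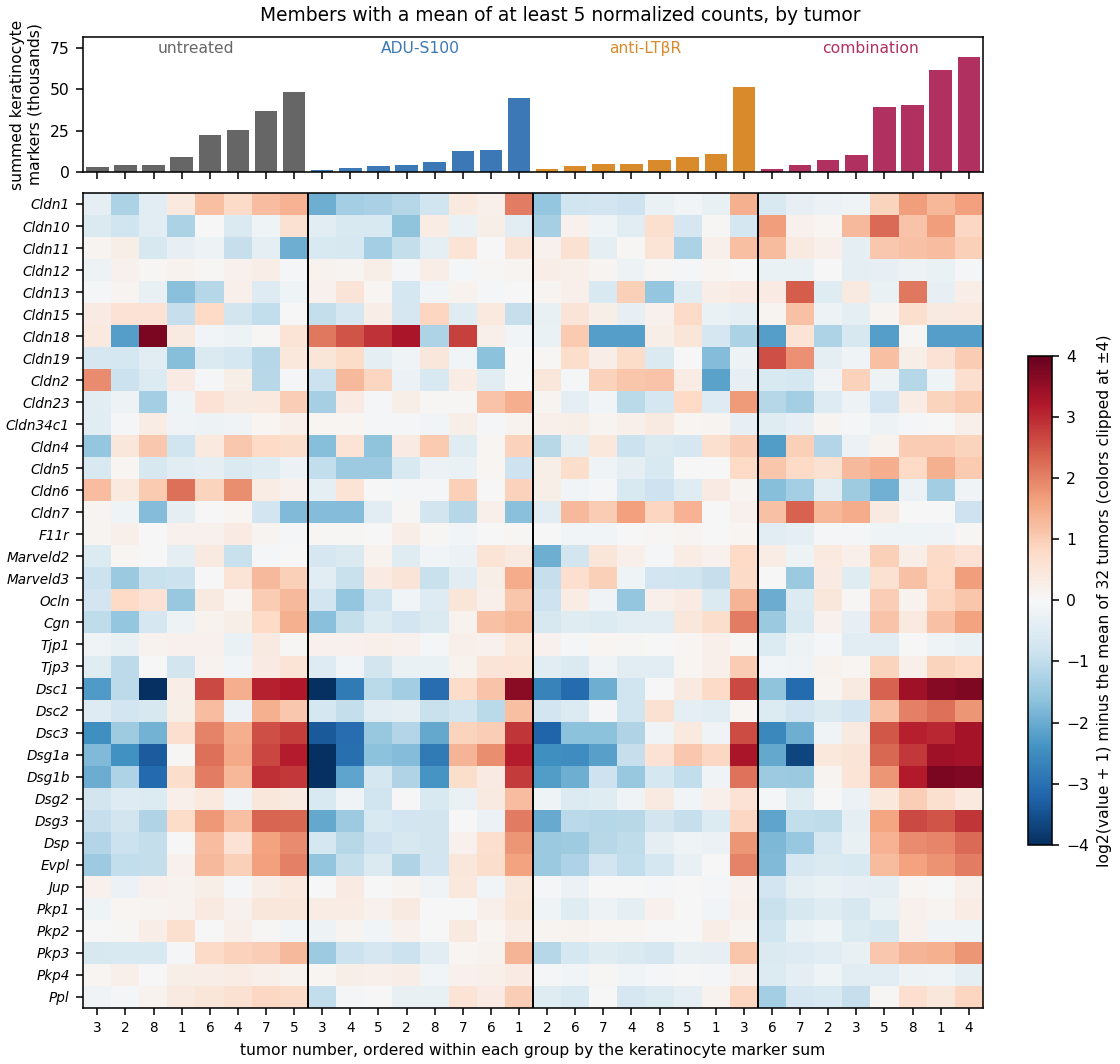
Log2(value + 1) of the members described here with a mean of at least 5 normalized counts, centered on its mean over 32 tumors (colors), with tumors ordered within each group by the summed keratinocyte markers shown above (bars, 1000 normalized counts). Dsc1, Dsc3, Dsg1a, Dsg1b and Dsg3 go from low to high with the bars in all 4 groups, while Cldn6 is high in the untreated block and low in the combination block.

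**Figure D5:**
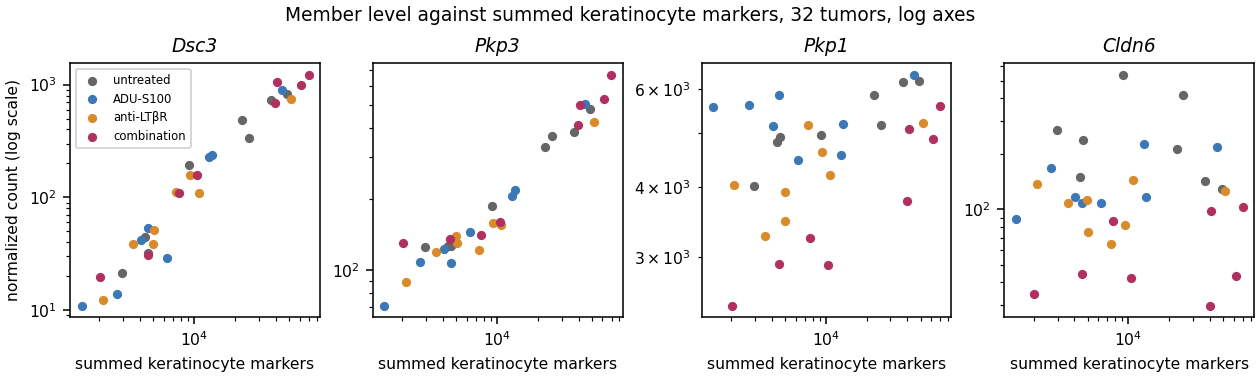
Normalized count of Dsc3, Pkp3, Pkp1 and Cldn6 in each of 32 tumors against the summed keratinocyte markers, both on log axes, colored by group. Dsc3 and Pkp3 follow a common line in all groups (r of 0.98 and 0.97), and Cldn6 does not (r of 0.02).

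Given alone, the agents changed few of the members. In anti-LTβR against untreated tumors 31 members were tested and 2 passed, both lower, beside 15.3% of all 16691 genes, 8.1% lower and 7.21% higher. Cldn6 changed by -1.18 ± 0.28 (SE) with an adjusted p of 0.0123, 2.26-fold lower, and 6 of 8 tumors lay below every untreated tumor. Cldn6 was the only tested member that passed and was past 2-fold, beside 1.04% of all genes. No member separated the groups without overlap, beside 1.77% of all genes. Of the 12 epithelial tumor markers, 6 were lower in the same comparison and none higher, with a list median of -0.73 on the log2 scale. The part of these markers in the Cldn6 result was not tested. Pkp4 changed by -0.20 ± 0.05 (SE) with an adjusted p of 0.0197, and 5 of 8 tumors lay below (limma). With a term for the replicate number Pkp4 did not pass. Neither Cldn6 nor Pkp4 passed in the libraries above 14000000 reads (-1.04, adjusted p = 0.0549, and -0.18, adjusted p = 0.0739, limma). The largest changes that did not pass in limma were those of Dsg3 at -1.51 ± 0.54 and Dsg1b at -1.21 ± 0.86 (log2, SE), and Dsg3 passed in edgeR and DESeq2. Cldn5 was at 0.48 ± 0.18 with an adjusted p of 0.0814 in limma and passed in DESeq2 (0.54, adjusted p = 0.0373). Cldn7, below the filter here, was higher and passed in limma without the filter (1.33, adjusted p = 0.0389) and with all 4 groups in a joint fit (1.33, adjusted p = 0.0259). DESeq2 also called F11r and Pkp1, or 6 members in all, beside 19.9% of all genes. The median of the tested members was -0.16 against 0.00 over all genes. In ADU-S100 against untreated tumors none of 31 members passed in limma, beside 0% of 16613 genes, and 1 member, Cldn6, had an unadjusted p under 0.05, with a change of -0.77 ± 0.29 (SE). Over all genes 2408 had an unadjusted p under 0.05, and edgeR and DESeq2 also called no member. No member separated these groups without overlap, beside 0.0421% of all genes.

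The combination was then compared with each agent. Against anti-LTβR tumors 8 of 32 members passed, beside 26.6% of all 16932 genes. Cldn5 (1.00 ± 0.19, SE) and Cldn10 (1.45 ± 0.33) were higher, beside 11.3% of all genes, and Cldn6 (-0.90 ± 0.27), Cldn12 (-0.28 ± 0.06), Pkp2 (-0.43 ± 0.11), Pkp4 (-0.31 ± 0.06), Tjp1 (-0.34 ± 0.07) and F11r (-0.18 ± 0.06) were lower, beside 15.3%. Cldn5 and Cldn10 also changed by at least 2-fold, beside 2.11% of all genes, and Pkp4 alone separated the groups without overlap, beside 3.15%. On recovered reads in edgeR and DESeq2 the split was 5 higher and 5 lower, with Dsc2, Dsg1b and Dsg3 added, and F11r no longer passed. Over all genes the split in these fits was from 13.2% to 14.6% higher and from 11% to 13.1% lower, so that there too more genes were higher than lower, the reverse of limma. Only 4 members passed in the libraries above 14000000 reads, beside 8.54% of all genes tested there, and Cldn6 (-0.82), Cldn12 (-0.27) and Pkp2 (-0.32) did not. Cldn10 did not pass in the tumors under 20000 (1.05, adjusted p = 0.0913, limma). Cldn34c1 (-0.39), Jup (-0.38) and Pkp1 (-0.50) were among the members that passed there and not over all tumors, beside 19.4% of all genes tested there. Against ADU-S100 tumors 12 of 32 members passed, beside 46.2% of all 16811 genes, and these were the same 12 genes as against untreated tumors, each in the same direction, 3 higher beside 20.2% and 9 lower beside 26% of all genes. The comparisons share the 8 combination tumors. Cldn5, Cldn6 and Cldn10 passed 2-fold too, beside 6.17% of all genes, and Cldn5 and Pkp4 separated the groups without overlap, beside 12%. Cldn5 changed by 1.78 ± 0.22 (SE), Cldn6 by -1.31 ± 0.28, Tjp1 by -0.45 ± 0.08 and Pkp4 by -0.51 ± 0.07. Above 14000000 reads 10 members were higher and 4 lower, beside 18% and 22.1% of all genes tested there. This leaves out ADU-S100 tumors 1 and 6, which had the largest and the next largest keratinocyte sum of their group, and combination tumors 5 and 6. The 7 members that passed in that setting only were Dsc1, Dsc3, Dsg1b, Cldn1, Pkp3, Cgn and Tjp3, and F11r, Jup, Pkp1 and Pkp2 were among those that no longer passed.

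The interaction of the agents asks whether the combination departed from the sum of the single-agent changes on the log2 scale. It passed for 5 of 35 members tested, beside 18.4% of all 17649 genes. Cldn5 (1.30 ± 0.29, SE, adjusted p = 0.00285) and Cldn10 (1.47 ± 0.45, adjusted p = 0.021) were above the sum, beside 7.33% of all genes in limma's test. Tjp1 (-0.49 ± 0.12, adjusted p = 0.00439), Pkp4 (-0.31 ± 0.08, adjusted p = 0.0106) and Cldn12 (-0.30 ± 0.09, adjusted p = 0.0236) were below it, beside 11% in limma's test. Cldn5 and Cldn10 were past 2-fold, beside 3.06% of all genes. As in the other comparisons with the combination group, Cldn10 passed the filter only through that group, where it is high. Its pass is therefore no added support. The term for Cldn6 was -0.13 ± 0.41 (SE) with an adjusted p of 0.853, and within 2 SE it reached from -0.95 to 0.69. In the tumors with under 20000 summed keratinocyte markers the terms for Cldn10 (0.71, adjusted p = 0.44, limma) and Cldn12 (-0.34, adjusted p = 0.0788, limma) did not pass. Those for Cldn34c1 (-0.49, adjusted p = 0.0469, limma) and Pkp1 (-0.65, adjusted p = 0.00863, limma) did, beside 14% of all genes tested there. Above 14000000 reads the terms for Cldn10 (1.34), Cldn12 (-0.30) and Pkp4 (-0.24) did not pass either, while Cldn1 and Dsg3 did, beside 8.84% of all genes tested there. In edgeR Dsc2 and Dsg3 passed in addition, and in DESeq2 these and Dsg1b and Pkp3.

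Other junction genes were counted in the same fit of combination against untreated tumors. Of 27 further tight junction genes tested, 7 were higher and 6 lower, among them Cxadr, an adhesion receptor of epithelial junctions (-1.44 ± 0.22, SE), the JAM-B gene Jam2 (-0.67 ± 0.11), the polarity gene Pard3 (-0.45 ± 0.07) and Cldnd1 (-0.36 ± 0.05). Of 14 adherens junction genes 4 were higher, among them VE-cadherin (Cdh5, 0.90 ± 0.08) and the mesenchymal cadherin Cdh11 (0.78 ± 0.12), and 5 lower, among them N-cadherin (Cdh2, -0.93 ± 0.16) and α-catenin (Ctnna1, -0.42 ± 0.06). Of 9 hemidesmosome genes, whose products anchor epithelial cells to the basement membrane, none was higher and 5 were lower, including the integrins Itga6 (-0.93 ± 0.15) and Itgb4 (-0.70 ± 0.10), Cd151 (-0.46 ± 0.07) and the laminin chain Lamb3 (-0.84 ± 0.24). Of 10 desmosome-associated genes 3 were lower and none higher, namely the simple-epithelial keratins Krt18 (-1.46 ± 0.18), Krt8 (-0.92 ± 0.14) and Krt19 (-0.67 ± 0.17). The median log2 fold changes of these lists were 0.00, -0.17, -0.28 and -0.14, against -0.02 over all genes tested. Beside these counts stand 19.6% of all genes higher and 23.6% lower, so that several of the shares lie near the background.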

How the data were processed

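Poly(A) RNA of 32 whole tumors was sequenced with paired ends after a stranded preparation. The values the authors deposited for them are a signal, the estimated number of reads of each gene over a size factor per library. A larger deposited table of 52 libraries is of the same kind, and in it whole reads were recovered for the 32 (100% of values within 0.01 of a whole number, growing with the value). Its 20 libraries of another experiment were not compared, 15 of them because their labels contradict each other. The submitters' processing notes name cutadapt 1.9, FastQC, HISAT2, StringTie, STAR, Partek, DESeq2 and edgeR and build mm39. Positions printed here are those of GRCm38 (GENCODE and RefSeq), not of the deposited table. A further deposited table of the authors' own enrichment scores was not used. Every per-sample column of both tables of normalized values was matched to a sample, but the 20 of the other experiment entered no comparison.

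Groups follow the sample labels. The labels name no batch, although the study's text speaks of 1 experiment in a first place and of 2 combined in another, and 0 library pairs were identical. The members and gene lists were chosen with earlier results of these data known. Genes were filtered with filterByExpr of edgeR 4.0.16 (minimum 10) and tested on log2(value + 1), a scale that understates the change of low genes, with limma 3.58.1 (trend, R 4.3.3), 16 libraries for each comparison and 32 for the interaction, with Benjamini-Hochberg adjustment over all genes. This stood in place of the authors' DESeq2, which became an alternative. Members named are those with an adjusted p under 0.05 in any comparison and the 3 with the highest level per kb of exon, and of other lists up to 4 genes with the smallest adjusted p. Members outside this rule are named with their values as examples chosen after the values were seen. The keratinocyte limit of 20000 was likewise set after seeing the data. Some items are not reported here and are left out of the figures, while the counts include them. The tests were tried on simulated counts with the same dispersion for every gene. That setting was less variable than the epidermal desmosomal cadherins, so the trial does not cover them. The p-values measure the spread between tumors.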

Additional observations from a re-analysis of the deposited data

Results flagged for a closer look

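The effects of the agents on 5 members differed from additivity by the interaction test in limma, which is 5 of 35 tested beside 18.4% of all genes. The log2 terms were 1.47 for Cldn10, 1.30 for Cldn5, -0.49 for Tjp1, -0.31 for Pkp4 and -0.30 for Cldn12. Cldn5 and Cldn10 were above, and Tjp1, Pkp4 and Cldn12 below, the sum of the single-agent changes. Cldn10 passed the filter on low values only through the combination group, where it is high, so its pass is no added support. Cldn10, Cldn12 and Pkp4 did not pass above 14000000 reads, nor did Cldn10 and Cldn12 in the tumors under 20000 in keratinocyte markers.

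Among 11 of the members that passed in some comparison, 44 sets of 8 tumors were examined for a tumor far from the rest, and 4 sets held one. Chance alone gives about 1 in 20. Pkp2 was highest in untreated tumor 1 at 369, with the next tumor at 286, and in anti-LTβR tumor 1 at 286, with the next at 260. Pkp4 was highest in anti-LTβR tumor 3 at 1022, with the next at 912. That tumor also had the largest keratinocyte marker sum of its group. F11r was highest in ADU-S100 tumor 2 at 2087, with the next at 1814.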

How the results depend on the processing

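Counts of passing members stayed within 1.5 times of the reported ones under most alternatives (edgeR with TMM or RLE and DESeq2 on recovered reads, no filter, a mean of at least 10, a pseudocount of 0.1, a joint fit, the replicate block, only libraries above 14000000 reads, only tumors under 20000 in keratinocyte markers). The exceptions were anti-LTβR against untreated tumors, with 6 members in DESeq2, 1 under the replicate block and 0 in libraries above 14000000 reads, combination against anti-LTβR tumors, with 4 above 14000000 reads, and the interaction, with 9 in DESeq2. In combination against ADU-S100 tumors above 14000000 reads, which leaves out the keratinocyte-rich ADU-S100 tumor 1, 10 members were higher and 4 lower, in place of 3 and 9. The interaction split was 4 higher and 3 lower in edgeR, beside 8.69% and 8.93% of all genes with TMM, in place of 7.33% and 11% in limma.

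Over the 193 tests of members in the 6 comparisons, the alternatives took away 39 calls and added 50, most of the latter in edgeR, DESeq2 and the settings with fewer tumors. Among the changes in combination against untreated tumors and the calls of the other comparisons, 10 values changed sign, none of them one that passed. These were, in combination against untreated tumors, Dsg3 at 0.39 in edgeR with TMM, 0.39 with RLE and 0.38 in DESeq2, above 14000000 reads Dsg3 at 0.41, Cldn34c1 at 0.00416, Cldn4 at 0.17 and Ocln at 0.13, and under 20000 Dsc2 at -0.24, Dsp at -0.32 and Evpl at -0.11. The cause was not tested. Cldn5 kept its calls throughout. Cldn6 lost them in anti-LTβR against untreated tumors (-1.04) and in combination against anti-LTβR tumors (-0.82) above 14000000 reads.

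The study gave treatments by mouse, so same-numbered tumors of different groups came from different mice. The labels name no mouse, so whether tumors of the same group came from separate mice is not given. Over the 5 comparisons, from 2 to 6 of 8 same-numbered pairs had deviations correlated above 0.1. From 1 to 6 of 16 tumors correlated best with their own number. The highest counts were 6 of 16 in combination against anti-LTβR tumors (mean correlation 0.17) and 5 of 16 in ADU-S100 against untreated tumors (0.19). What same-numbered tumors share in these comparisons was not tested, and the numbers were not taken as pairs. With the replicate block, 11 members passed in combination against untreated, 0 in ADU-S100 against untreated, 8 against anti-LTβR, 12 against ADU-S100 and 6 for the interaction, beside 41%, 0.012%, 26.9%, 43.3% and 18.7% of all genes in the same fits. The calls not made under the block included Marveld2 in combination against untreated tumors and Pkp4 in anti-LTβR against untreated tumors (0.58 and -0.20, adjusted p = 0.0518 and 0.0611, limma). Dsc2 was called under it in combination against ADU-S100 tumors (1.07, adjusted p = 0.0481, limma). At 12762453 to 15591986 reads a library, members with under about 10 counts rest on few reads.

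Over all genes, the numbers higher and lower moved by over 1.5 times in some settings. They fell from 3310 and 3995 to 1996 and 2302 under 20000 (combination against untreated), from 1203 and 1352 to 820 and 840 with the block and 794 and 743 above 14000000 reads (anti-LTβR against untreated), from 1917 and 2587 to 739 and 711 above 14000000 reads (combination against anti-LTβR) and from 1293 and 1947 to 738 and 830 above 14000000 reads (interaction). In ADU-S100 against untreated tumors DESeq2 called 46 higher and 11 lower in place of 0.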

Other observations

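Gap junction genes, which encode channels between neighboring cells, were not part of the comparisons above. In combination against untreated tumors 3 of 9 tested were higher and 2 lower (limma, adjusted p under 0.05), beside 19.6% and 23.6% of all genes. The arterial endothelial connexins Gja4 (1.28 ± 0.14, SE) and Gja5 (0.60 ± 0.17) were among the higher ones.

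All 5 lymphatic endothelial markers were higher in the same comparison, with a list median of 1.93 on the log2 scale, as were all 7 fibroblast markers with a median of 1.54 and all 6 mural cell markers with a median of 0.55. Of 7 leukocyte markers 6 were higher, of 7 macrophage and dendritic cell markers 5, and of 6 Schwann cell and nerve markers 5, and none of these lists had a lower member. None of 13 keratinocyte, 7 skeletal muscle or 5 adipocyte markers passed. The skeletal muscle sum ran from 6147 to 376723 over the 32 tumors.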
